A study of Mus musculus with 6 samples.

Results

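Canonical histone genes supply the bulk of the histones that package newly made DNA. Their members were taken by name from the deposited expression table, as every gene whose symbol starts with Hist1h, Hist2h, Hist3h or Hist4, the older symbols of the clustered histone genes. This gave 57 of 23398 genes: 5 encoding linker histone H1, 12 for H2A, 17 for H2B, 10 for H3 and 13 for H4, counting the pseudogenes Hist1h2aj and Hist3h2bb-ps by name. The Hist1 cluster on chromosome 13 holds 49 of them, Hist2 on chromosome 3 holds 4, Hist3 on chromosome 11 holds 3, and Hist4h4 on chromosome 6 stands alone. The GENCODE M21 annotation lists 70 genes with such names, and the other 13 were not analysed here.

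The study compared mouse bone marrow-derived dendritic cells (BMDC), immune cells that display antigen to T cells, after 12 hours with calcium hydroxide (Ca(OH)2) nanoparticles or with vehicle. Each group has 3 libraries, made from 1 µg of total RNA each, and the series' design asks how the messenger RNA profile differs with treatment. The labels give no strain, genotype, age, nanoparticle dose or vehicle composition, and do not say whether libraries came from separate cultures or animals. The p-values therefore measure the spread between these libraries, which may be technical. In bulk RNA, fewer cells of a type and less RNA per cell cannot be told apart.

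Each nucleosome wraps DNA around an octamer of H2A, H2B, H3 and H4, and H1 binds the linker DNA between nucleosomes. Most canonical histone messages are made during S phase, have no introns, and end in a conserved hairpin bound by the stem-loop binding protein Slbp, in place of the poly(A) tail that other messages carry. Some histone genes are known also to give longer, polyadenylated messages, and replication-independent variants such as H3.3 come from genes with ordinary polyadenylated messages. The sources used here do not say whether the libraries were made by poly(A) selection or by removal of ribosomal RNA, so how well messages without a tail were captured is unknown.

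Members were searched for the 3′ hairpin because it is the feature that sets these messages apart. The search asked for a 6-base stem that opens with GG and closes with CC, with every pair complementary, and a 4-base loop that opens with TT, after the stop codon of each annotated transcript. It was found in 40 of the 57 members, starting 21 to 54 bases after the stop codon. The sites of 7 members that passed the filter on low values (below) are shown 5′ to 3′ with the hairpin in capitals and 5 bases on either side, from the GENCODE M21 transcripts on GRCm38.
Hist1h1c, chr13:23739507-23739532, plus strand: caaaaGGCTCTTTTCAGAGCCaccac
Hist3h2a, chr11:58955167-58955192, plus strand: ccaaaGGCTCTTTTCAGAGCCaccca
Hist1h4i, chr13:22040961-22040986, minus strand: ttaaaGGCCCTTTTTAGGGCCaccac
Hist2h3c2, chr3:96238480-96238505, minus strand: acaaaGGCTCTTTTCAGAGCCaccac
Hist1h2bg, chr13:23571838-23571863, plus strand: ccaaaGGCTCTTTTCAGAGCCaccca
Hist1h4h, chr13:23531453-23531478, plus strand: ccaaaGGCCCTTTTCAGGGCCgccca
Hist1h4n, chr13:21831793-21831818, minus strand: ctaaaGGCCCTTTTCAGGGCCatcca
The form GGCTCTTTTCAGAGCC, seen here in Hist1h1c, Hist3h2a, Hist2h3c2 and Hist1h2bg, was found in 23 members, of which 3 encode H1, 8 H2A, 8 H2B and 4 H3. The form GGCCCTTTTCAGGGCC of Hist1h4h and Hist1h4n was found in 7 members, all of them H4 genes, and the form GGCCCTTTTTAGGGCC of Hist1h4i in 2, also H4. Of the 15 protein-coding members without a match, 8 have only annotated transcripts that end at the stop codon, so no 3′ sequence was there to search.

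The 6 libraries held 17281845 to 21976454 reads, recovered from the deposited values. Nanoparticle library 1 stood apart: across the 10682 genes tested, its log2 values correlated with those of nanoparticle libraries 2 and 3 at 0.942 and 0.928, against 0.9895 between those libraries and 0.9926 to 0.9938 between vehicle libraries. The level summed over all members, some counts of genes that rose or fell, and the ratios of some genes are also given without nanoparticle library 1. The ratios by histone type include it. Dendritic cell markers were present, with Flt3 at or near 0. Of 12 such markers, 11 were tested, and 2 were higher (Ccr7 and Irf8) and 3 lower (Cd209a, Clec10a and Zbtb46). The summed level of all 12, mostly Cd74, was 6152 to 6594 FPKM with vehicle and 3555 to 7879 with nanoparticles. Of 10 macrophage markers, all tested, 4 were higher and 4 lower, with summed levels of 1159 to 1301 and 1479 to 1870 FPKM. Neutrophil markers summed to 35.1 to 39.9 and 50.8 to 125 FPKM (2 of 11 tested, 1 higher), mast cell and basophil markers to 2.69 to 4.90 and 9.63 to 25 FPKM (3 of 6 tested, 1 higher and 1 lower), and erythroid, lymphocyte and stromal markers to under 1 FPKM in every library. The neutrophil, mast cell and macrophage sums were higher in every nanoparticle library, but the marker whose mean rose most in each list (S100a8, Hdc and Cd14) carried much of this. Without Cd14 the macrophage sum was 1244, 1137 and 1100 FPKM with vehicle and 1226, 1006 and 1056 with nanoparticles. Without Hdc the mast cell sum was 2.5, 3.59 and 4.55 FPKM and 0.898, 3.50 and 2.87, and without S100a8 the neutrophil sum was 1.71, 2.47 and 3.94 FPKM and 0.718, 20.5 and 15.8. In each of these 3 reduced sums the groups overlapped. The part of these cell types in the histone results was not tested.

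Reads of histone genes were few and concentrated in 2 genes. All 57 members together took 3932, 3780 and 4239 reads in the vehicle libraries and 5705, 4659 and 6217 reads in the nanoparticle libraries, which is 0.0222%, 0.0219% and 0.0233% of all reads with vehicle and 0.0321%, 0.0252% and 0.0283% with nanoparticles. Hist1h2bc (H2B) and Hist1h1c (H1) gave 87.3% to 91.4% of these reads in each library. The other 55 members gave 408, 411 and 460 reads with vehicle and 727, 403 and 589 with nanoparticles, so these groups overlapped. The plot of histone reads by library shows this division.

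**Figure D1:**
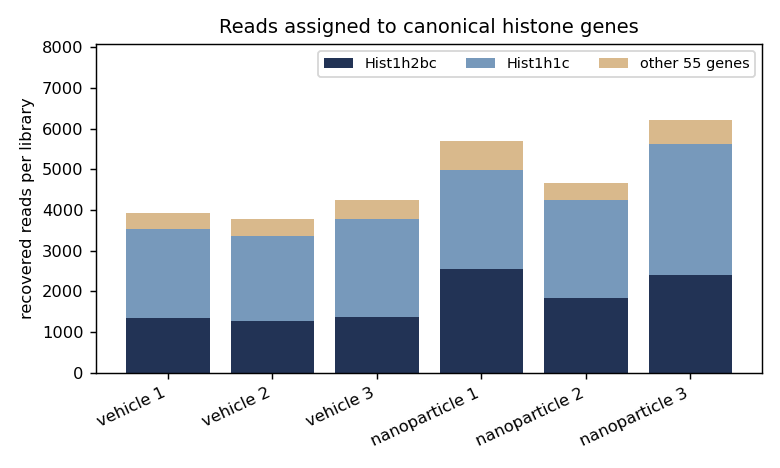
Reads assigned to canonical histone genes in each library, stacked as Hist1h2bc, Hist1h1c and the other 55 members together. The totals run from 3780 to 4239 reads in the vehicle libraries and from 4659 to 6217 in the nanoparticle libraries, and the 2 named genes make up most of every bar.

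The unit of the deposited values is not named, and 1 of the 2 identical tables is named for read counts. The values were read as FPKM (reads per kilobase of gene, scaled between libraries), a unit inferred from the values themselves. Summed over all members, it was 150, 144 and 154 FPKM with vehicle and 272, 211 and 245 FPKM with nanoparticles. Every nanoparticle library lay above every vehicle library, with means of 149 ± 4.97 and 243 ± 30.9 (SD, n = 3 each), a ratio of 1.63. The ratio was 1.28 when libraries were scaled by their total reads, a scaling that lowers the median log2 change of all genes tested from -0.0010 to -0.28. It was 1.53 without nanoparticle library 1, and 1.65 over the 37 members that share under 50% of their sequence with other genes. Those 37 include Hist1h2bc and Hist1h1c, which gave most of their sum. By histone type the ratio of summed FPKM was 1.39 for H1, 1.89 for H2A, 1.90 for H2B, 1.44 for H3 and 1.56 for H4. Most of the H1 sum was Hist1h1c, and most of the H2B sum was Hist1h2bc. The H4 sum was 5.48, 7.65 and 7.76 FPKM with vehicle and 15.7, 6.03 and 10.9 with nanoparticles, so its groups overlapped. For the other types the groups did not overlap. The H2A sum was 2.72, 3.82 and 3.46 FPKM with vehicle and 9.03, 4.05 and 5.82 with nanoparticles, highest in nanoparticle library 1. Of this, Hist3h2a gave 1.15, 0.987 and 1.05 FPKM with vehicle and 4.31, 2.11 and 2.47 with nanoparticles. The H2A sums thus do not show a separation of the groups for the other H2A genes. Without Hist1h2bc and Hist1h1c, the other 55 members summed to 21, 20.9 and 23.2 FPKM with vehicle and 42.0, 21.2 and 30.2 with nanoparticles, and only nanoparticle libraries 1 and 3 lay above the vehicle range by more than its width.

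Of the 57 members, 9 reached at least 1 FPKM in at least 3 libraries and entered the test across all genes (limma on log2(FPKM + 1), with Benjamini-Hochberg adjustment over 10682 genes). At an adjusted p under 0.05, 3 of these rose with nanoparticles (Hist1h2bc, Hist1h1c and Hist3h2a) and 0 fell. Over all genes tested, 17.0% rose and 16.2% fell, 33.2% in all. At an unadjusted p under 0.05 the counts were 5 higher and 0 lower, beside 22.4% and 22.0% of all genes, and limma's voom on the recovered reads gave 3 higher and 0 lower, beside 16.9% and 16.7%. Scaling by total reads left 2 higher (Hist1h2bc and Hist3h2a) and 0 lower, beside 10.4% of all genes higher and 33.8% lower. Without nanoparticle library 1 the counts were also 3 and 0, while the share of all genes that rose was 34.3% and that fell 30.5%. Leaving out any 1 vehicle library left 1 member, Hist1h2bc, past the threshold. The groups did not overlap for 5 of the 9 members, all higher with nanoparticles, beside 25.9% of all genes higher and 26.2% lower without overlap. The median log2 change of the 9 members was 0.58, and that of all genes tested was -0.0010. Hist3h2a, Hist1h4h and Hist1h2bg reached 1 FPKM in every nanoparticle library but not in every vehicle library. They thus passed the filter through the group where they were higher. Their part in these counts and in the median is not independent of the filter.

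**Figure D2:**
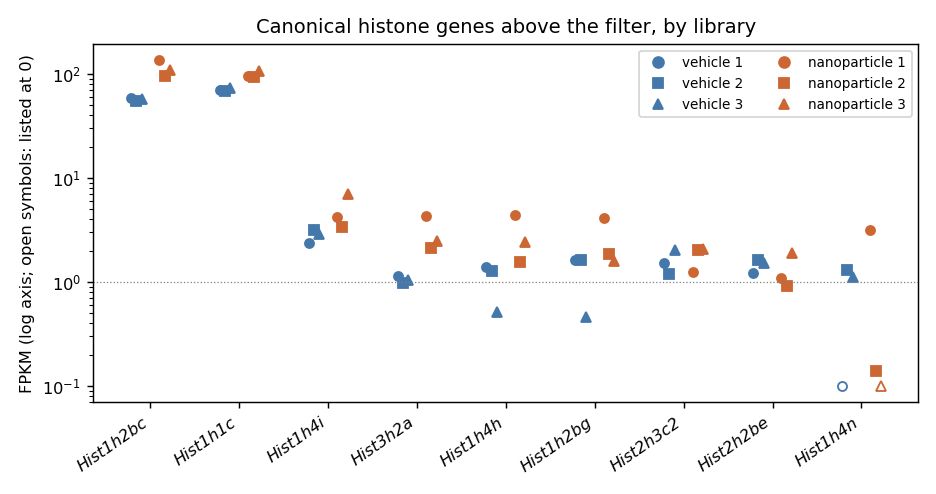
FPKM of the 9 canonical histone genes above the filter in each library, on a log axis, with vehicle and nanoparticle libraries marked apart, the dotted line at the filter of 1 FPKM and open symbols for values listed at 0. Hist1h2bc and Hist1h1c lie above 50 FPKM in all libraries, and the other 7 genes lie at 7.0 FPKM or below.

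Among the core histones, the clearest rise was in Hist1h2bc, which encodes an H2B (ENSMUSG00000018102, chr13:23684199-23692908, plus strand). It stood at 58.5, 55 and 57.3 FPKM in the vehicle libraries and at 135, 95.9 and 108 FPKM in the nanoparticle libraries, resting on 1261 to 2554 reads per library. Every nanoparticle library was well above the vehicle range, and nanoparticle library 1 was the highest. The means were 56.9 ± 1.77 and 113 ± 20.2 FPKM (SD, n = 3 each), a ratio of 1.99, or 1.79 without nanoparticle library 1. The log2 change was 0.96 with an SE of 0.15 (limma adjusted p = 0.0041). Hist1h2bc stayed past the threshold in all 12 alternatives tried, with log2 changes of 0.62 to 1.07 and limma adjusted p of 9.4e-05 to 0.0275.

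The gene model of Hist1h2bc differs from the usual single-exon histone gene. Exon 1 (chr13:23684199-23684621) holds the coding sequence and ends 9 bases after the stop codon. An intron of 7554 bases follows, and exon 2 (chr13:23692176-23692908) adds 733 bases of 3′ untranslated region. No hairpin was found in this annotated transcript. Of its 100-base stretches, 25.4% also occur in transcripts of other genes, so reads from those stretches cannot be placed by sequence alone.

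The linker histone gene Hist1h1c, which encodes H1.2 (ENSMUSG00000036181, chr13:23738808-23740367, plus strand), also rose. It stood at 70.0, 68.2 and 73.6 FPKM with vehicle and at 95.2, 93.8 and 107 FPKM with nanoparticles. The groups were far apart compared with the spread inside each, and nanoparticle library 3, not library 1, was the highest. The means were 70.6 ± 2.76 and 98.7 ± 7.30 FPKM (SD, n = 3 each), a ratio of 1.40, and the log2 change was 0.48 with an SE of 0.109 (limma adjusted p = 0.0179). Scaling by total reads left a log2 change of 0.13 (limma adjusted p = 0.332), where the median of all genes was -0.28. The call was also lost when any vehicle library was left out (limma adjusted p = 0.0735 to 0.0996, log2 change 0.45 to 0.51). Only 5.07% of its 100-base stretches are found in another gene, and its annotated transcript runs 840 bases past the hairpin.

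The other 4 H1 genes lay below the filter. Of these, Hist1h1d had the most reads, 16, 26 and 25 with vehicle and 54, 47 and 36 with nanoparticles, so its groups did not overlap, at 0.149 ± 0.0359 and 0.360 ± 0.0989 FPKM (SD, n = 3 each). Its annotated transcript runs 4884 bases past the hairpin. Hist1h1a moved the other way, with 4, 4 and 3 reads with vehicle and 2, 0 and 0 with nanoparticles. Both were singled out after their values were seen.

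For H2A, Hist3h2a (ENSMUSG00000078851, chr11:58954685-58956830, plus strand) was the one member above the filter, and it rose. It stood at 1.15, 0.987 and 1.05 FPKM with vehicle (42 to 49 reads) and at 4.31, 2.11 and 2.47 FPKM with nanoparticles (151, 75 and 102 reads). The lowest nanoparticle library lay above the highest vehicle library, and nanoparticle library 1 stood out. The means were 1.06 ± 0.0800 and 2.96 ± 1.18 FPKM (SD, n = 3 each), a ratio of 2.79, or 2.16 without nanoparticle library 1. The log2 change was 0.90 with an SE of 0.207 (limma adjusted p = 0.0175). The call was lost with no filter on low values (limma adjusted p = 0.0510) and when any vehicle library was left out (0.0582 to 0.0687). Hist3h2a overlaps Trim17 on the same strand and Gm44313 on the opposite strand, and the strand of the libraries is not given in the sources used here, so part of these reads may belong to those genes.

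Among the H2B genes other than Hist1h2bc, Hist1h2bg (chr13:23571396-23572013) stood at 1.62, 1.63 and 0.465 FPKM with vehicle and 4.16, 1.86 and 1.60 FPKM with nanoparticles. Nanoparticle library 1 was high and the other libraries of the groups overlapped, and the log2 change of 0.64 (SE 0.343) was not past the threshold (limma adjusted p = 0.205). Hist2h2be (chr3:96221119-96223738), which shares no 100-base stretch with another gene, stood at 1.23, 1.62 and 1.52 FPKM with vehicle and 1.10, 0.923 and 1.92 with nanoparticles. Its groups overlapped, and the log2 change was -0.11 with an SE of 0.178 (limma adjusted p = 0.692).

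Of the H4 genes, 3 passed the filter and 0 passed the test. Hist1h4i (chr13:22040636-22041362) stood at 2.35, 3.19 and 2.90 FPKM with vehicle and 4.21, 3.41 and 7.0 FPKM with nanoparticles. The groups did not overlap, though nanoparticle library 2 came close to the vehicle range, and the log2 change was 0.58 (SE 0.232, limma adjusted p = 0.102). Hist1h4h (chr13:23531050-23531519) stood at 1.39, 1.29 and 0.510 FPKM with vehicle and 4.43, 1.54 and 2.43 with nanoparticles, again without overlap but on 5 to 34 reads per library (log2 change 0.84, SE 0.315, limma adjusted p = 0.0871). Hist1h4n (chr13:21831767-21832196), which shares 80.7% of its 100-base stretches with other genes, had 0, 11 and 10 reads with vehicle and 22, 1 and 0 with nanoparticles. Its values scattered between libraries of the same group more than between groups (log2 change -0.01, SE 0.607, limma adjusted p = 0.988). Hist4h4, the one member outside the 3 clusters, had 2, 0 and 0 reads with vehicle and 2, 0 and 4 with nanoparticles, too few to compare.

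For H3, Hist2h3c2 (chr3:96238108-96239127) was the one gene above the filter, at 1.53, 1.19 and 2.02 FPKM with vehicle and 1.26, 2.01 and 2.09 FPKM with nanoparticles. The groups overlapped, and the log2 change was 0.11 with an SE of 0.178 (limma adjusted p = 0.673), and 61.6% of its 100-base stretches are shared. Hist1h3d, below the filter and named after its values were seen, had 8, 2 and 12 reads with vehicle and 70, 23 and 5 with nanoparticles, with a high value in nanoparticle library 1 and an overlap of the groups.

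The 48 members below the filter had 1 to 204 reads over all 6 libraries, with a median of 13.5. Of these, 19 had at most 10 reads in all and 37 had 0 reads in at least 1 library. The mean FPKM was higher with nanoparticles in 27 and lower in 21, and their summed level overlapped between groups (11.7 ± 1.94 and 13.8 ± 5.19 FPKM, SD, n = 3 each). The groups did not overlap in 8: Hist1h1d, Hist1h2ac, Hist1h4d and Hist1h3f were higher with nanoparticles, and Hist1h2bn, Hist1h2bf, Hist1h1a and Hist1h2bh were lower. Over all 12716 genes below the filter, the groups did not overlap in 6.75% higher and 9.08% lower, so counts of 4 and 4 of 48 lie near the background. These 8 are named because of their values. Hist1h2ac had 3, 2 and 4 reads with vehicle and 25, 6 and 9 with nanoparticles, and Hist1h2bf had 7, 2 and 8 with vehicle and 1, 0 and 1 with nanoparticles. With no filter on low values, 2 members were higher (Hist1h2bc and Hist1h1c) and 1 was lower, beside 6.99% and 7.46% of all 23398 genes. The lower one was Hist1h2bn, an H2B gene with 6, 5 and 4 reads with vehicle and 1, 0 and 0 with nanoparticles (log2 change -0.65, limma adjusted p = 0.0099), counts near the floor of 3 reads below which a value was not read as expression.

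**Figure D3:**
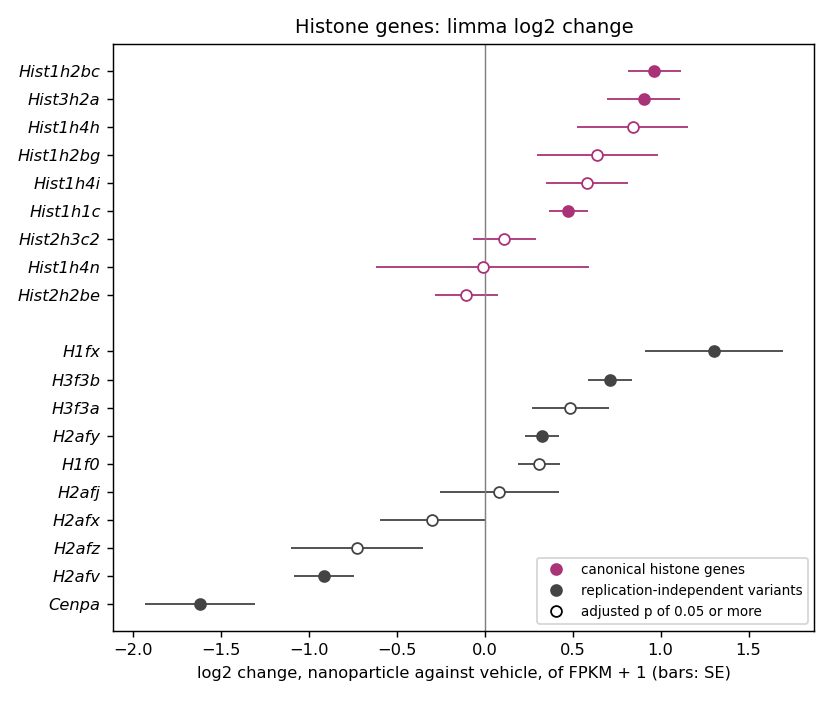
Log2 change of FPKM + 1, nanoparticle against vehicle, with its SE from limma, for the 9 canonical histone genes above the filter and the 10 replication-independent variants tested. Filled points are past an adjusted p of 0.05: the 3 filled canonical genes lie between 0.48 and 0.96, and the filled variants lie on both sides of 0.

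Where the reads fell was set beside the 3′ end of each gene model. In 23 members the annotated transcript ends under 200 bases after the hairpin, and these had 673 reads over all libraries, a median of 14 per gene, with 1 gene at 100 reads or more. In 17 members the longest transcript runs on for 200 bases or more. These had 16480 reads, of which Hist1h1c gave 14746. Their median was 49 reads per gene, and 7 genes had 100 reads or more. The 15 protein-coding members without a hairpin in their annotated transcripts had 11373 reads, of which Hist1h2bc gave 10788. The limit of 200 bases was chosen here with the gene models in view, and a longer gene model also counts more sequence, so reads per gene are not levels per length. Of the members tested, 0 of 3 in the first class passed the threshold. In the second class 2 of 4 passed (Hist1h1c and Hist3h2a), and in the third 1 of 2 (Hist1h2bc). Over all genes tested, 33.2% passed in either direction, and counts this small do not set the classes apart.

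**Figure D4:**
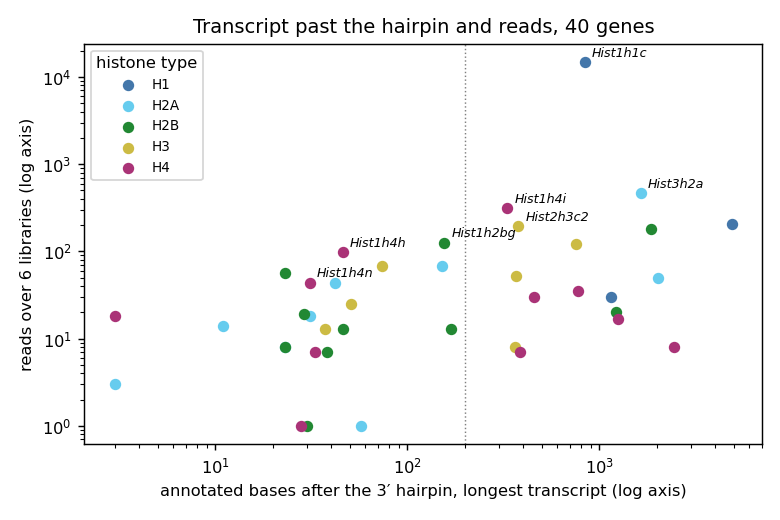
Reads over all 6 libraries against the annotated bases after the 3′ hairpin in the longest transcript, both on log axes, for the 40 members with a hairpin, coloured by histone type. The dotted line marks 200 bases: 1 gene to its left and 7 to its right have 100 reads or more.

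Copies of histone genes resemble each other, and the handling of reads that fit more than 1 copy is not given in the sources used here. The share of a member's 100-base stretches found in transcripts of another gene had a median of 32.2%. It was over 50% in 20 members and under 5% in 8. Another annotated gene overlaps 15 members. Hist1h2be, which overlaps Hist1h1e, had 28, 27 and 31 reads with vehicle and 61, 17 and 17 with nanoparticles, opposite in direction between nanoparticle library 1 and the others.

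Histone genes often lie head to head, an H2A gene and an H2B gene that share 1 short stretch between their starts. Such pairs with starts within 500 bases numbered 11 here, each an H2A gene with an H2B gene. In the pair of Hist1h2ac and Hist1h2bc, 250 bases apart, Hist1h2ac had 49 reads over all libraries and Hist1h2bc had 10788. Hist2h2ac had 1 read and Hist2h2be 415, and Hist3h2bb-ps had 5 and Hist3h2a 466. These 3 pairs were singled out because they hold the 3 members with the most reads among such pairs, and their gene models differ in length. Some other pairs were closer in reads: Hist1h2bl and Hist1h2ai had 9 and 8, and Hist1h2ap and Hist1h2br had 3 and 6. Hist1h2bf and Hist1h2ad had 19 and 43, Hist1h2ae and Hist1h2bg had 68 and 126, and Hist1h2bq and Hist1h2ao had 42 and 18. The rest were further apart, on few reads. Hist1h2aj and Hist1h2bm had 1 and 13, Hist1h2ak and Hist1h2bn had 2 and 16, and Hist1h2ag and Hist1h2bj had 8 and 57.

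The window from 250 bases before to 50 after a gene's start was searched on both strands for ATTTGCAT (the octamer of H2B promoters), CCAAT and TATAAA, none of which contains another. RefSeq entries on GRCm38.p6 were matched by older symbols for 56 members, of which 49 have a promoter sequence. ATTTGCAT was found in 10 of these 49 (5 of 10 H2A, 5 of 14 H2B and 0 of the others), against 1.75% of all 27025 promoters of this length. Windows of head-to-head genes overlap, so a site can count for both. The windows of Hist1h2ae and Hist1h2bg hold the same ATTTGCAT. CCAAT was found in 40 (all H1, H2A, H2B and H3 genes, 3 of 12 H4), against 37.9%, and TATAAA in 29, against 14.2%. The windows by the start of the 2 most abundant members are shown because they differ in these motifs. Matches on either strand are in capitals. Hist1h2bc has no promoter sequence of its own here, so the first window is that of its neighbour Hist1h2ac. The first reads in the direction of Hist1h2ac and spans the stretch it shares with Hist1h2bc, whose annotated start at 23684199 lies inside it.
Hist1h2ac and Hist1h2bc, chr13:23683910-23684209, minus strand: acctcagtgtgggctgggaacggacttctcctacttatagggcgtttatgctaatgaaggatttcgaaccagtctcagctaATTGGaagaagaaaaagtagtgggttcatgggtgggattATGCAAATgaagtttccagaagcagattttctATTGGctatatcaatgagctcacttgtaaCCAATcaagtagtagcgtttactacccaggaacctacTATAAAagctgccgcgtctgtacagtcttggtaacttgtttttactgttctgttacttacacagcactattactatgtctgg
Hist1h1c, chr13:23738557-23738856, plus strand: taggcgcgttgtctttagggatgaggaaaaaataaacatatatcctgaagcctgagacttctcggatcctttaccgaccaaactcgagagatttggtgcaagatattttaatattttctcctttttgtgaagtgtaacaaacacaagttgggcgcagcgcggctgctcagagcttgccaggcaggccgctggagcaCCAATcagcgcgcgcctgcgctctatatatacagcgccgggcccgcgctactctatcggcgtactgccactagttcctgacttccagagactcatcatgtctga
The first holds 1 ATTTGCAT, 3 CCAAT and 1 TATAAA, and the window of Hist1h1c holds 1 CCAAT and none of the other motifs. The TATAAA of the first window lies at position -32 from the start of Hist1h2ac. A match is a description of the letters, not of a bound site.

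Replication-independent histone variants, which are deposited outside S phase or at special chromatin, were counted beside the canonical genes. Of 10 tested, 3 rose and 2 fell, beside 17.0% and 16.2% of all genes tested. H3f3b, one of the genes for H3.3, rose: its 3 vehicle libraries averaged 103 ± 0.488 FPKM and its 3 nanoparticle libraries 171 ± 20.5 (SD), a log2 change of 0.71 by limma at adjusted p = 0.0068. The linker variant H1fx (log2 change 1.3, limma adjusted p = 0.0455) and the macroH2A gene H2afy (0.32, limma adjusted p = 0.0456) rose closer to the threshold. For H2afy the log2 change was -0.0095 when libraries were scaled by total reads. Cenpa, the centromeric H3, fell from 8.53 ± 0.669 to 2.30 ± 1.29 FPKM (log2 change -1.62, limma adjusted p = 0.0092), and H2afv, an H2A.Z gene, fell by 0.91 on the log2 scale (limma adjusted p = 0.0079). Leaving out any 1 library left 1 variant higher, except nanoparticle library 1, without which 6 were higher, beside 34.3% of all genes. Not past the threshold were H3f3a (0.49), H2afz (-0.73), H2afx (-0.30), H2afj (0.08) and H1f0 (0.31). Per length, canonical H3 genes summed to 4.33 ± 1.26 FPKM with vehicle and 6.23 ± 0.670 with nanoparticles, while H3f3a and H3f3b summed to 157 ± 1.31 and 249 ± 40.5 (SD, n = 3 each). Canonical H2A genes summed to 3.33 ± 0.561 and 6.30 ± 2.52 FPKM, and 5 H2A variants to 189 ± 5.88 and 155 ± 53.7, with overlap of the groups.

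The genes that act on histone supply were taken as lists. Of 7 tested genes for transcription of histone genes, 4 fell and 0 rose, with a median log2 change of -0.49, beside 16.2% of all genes lower and 17.0% higher. Ccne2, a cyclin that drives S phase with Cdk2, fell by 1.36 on the log2 scale (limma adjusted p = 3.3e-04), Cdk2 by 0.74 (0.0056), Casp8ap2 by 0.54 (0.0169) and Ccne1 by 0.49 (0.0375). Npat, the coactivator of histone genes at their nuclear body, stood at 1.96 ± 0.0697 and 1.17 ± 0.601 FPKM (limma adjusted p = 0.107). Hinfp (log2 change 0.22) and E2f1 (0.02), outside the rule for named genes, also did not pass the threshold. Of 18 genes for 3′ processing and decay of histone messages, 2 fell and 0 rose, which is no more than the 16.2% lower and 17.0% higher of all genes. They were Slbp, which binds the hairpin, from 5.29 ± 0.450 to 3.85 ± 0.284 FPKM (log2 change -0.38, limma adjusted p = 0.0327), and the cap-binding gene Ncbp1 (-0.36, 0.0314). The U7 particle genes Lsm10 (0.35) and Lsm11 (0.26) and the cleavage nuclease gene Cpsf3 (-0.26) did not pass. The counts of processing genes depended on single libraries, as did those of all genes. Without nanoparticle library 1, 5 were higher and 6 lower, beside 34.3% and 30.5% of all genes. Without any 1 vehicle library or nanoparticle library 2, 0 processing genes were lower. These counts also depended on scaling, with 8 lower when libraries were scaled by total reads, beside 33.8% of all genes lower. The count of transcription genes that fell was 2 without vehicle library 1, vehicle library 3 or nanoparticle library 2.

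Of 16 histone chaperone genes, which carry histones to DNA, 3 rose and 5 fell, beside 17.0% and 16.2% of all genes tested. The paralogs of Asf1, a carrier of H3 with H4, went opposite ways: Asf1a rose from 2.52 ± 0.103 to 6.76 ± 0.151 FPKM (log2 change 1.14, limma adjusted p = 2.8e-04), and Asf1b fell from 8.68 ± 0.735 to 1.17 ± 0.134 (log2 change -2.16, limma adjusted p = 8.4e-05). Daxx, a chaperone of H3.3, rose by a log2 change of 2.03 and the acetyltransferase gene Hat1 by 0.67, while Chaf1a, a subunit of the replication-coupled assembly factor, fell by 0.88 on the log2 scale. The other 3 that fell, outside the rule for named genes, were Nasp (-0.44), Ssrp1 (-0.45) and Hjurp (-1.08). The number of chaperone genes that fell was 2 without any 1 vehicle library or nanoparticle library 2. It was 9 without nanoparticle library 1 and 9 with scaling by total reads, beside 30.5% and 33.8% of all genes lower.

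Genes of DNA replication were the most uniform list. Of 21 tested, 18 fell and 0 rose, with a median log2 change of -1.07, beside 16.2% of all genes lower and 17.0% higher. The ribonucleotide reductase subunits fell, Rrm2 from 18.1 ± 1.34 to 2.24 ± 0.796 FPKM and Rrm1 from 7.10 ± 0.279 to 1.67 ± 0.0893 FPKM (SD, n = 3 each, limma adjusted p = 2.5e-04 and 1.1e-04). So did the helicase subunits Mcm7 (log2 change -1.77) and Mcm2 (-1.50) and the loading factor Cdc6 (-1.28). Beside these, 0 of the 9 canonical histone genes tested fell, and the difference between the lists was not tested. All lists share the same vehicle and nanoparticle libraries. To see how RNA without a poly(A) tail behaved, 6 such RNAs were listed and 1 was in the table: Rn7sk stood at 2.27 to 4.27 FPKM with vehicle and 2.41 to 5.17 with nanoparticles, with overlap (log2 change 0.25, limma adjusted p = 0.550). The other 5 were not analysed here.

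**Figure D5:**
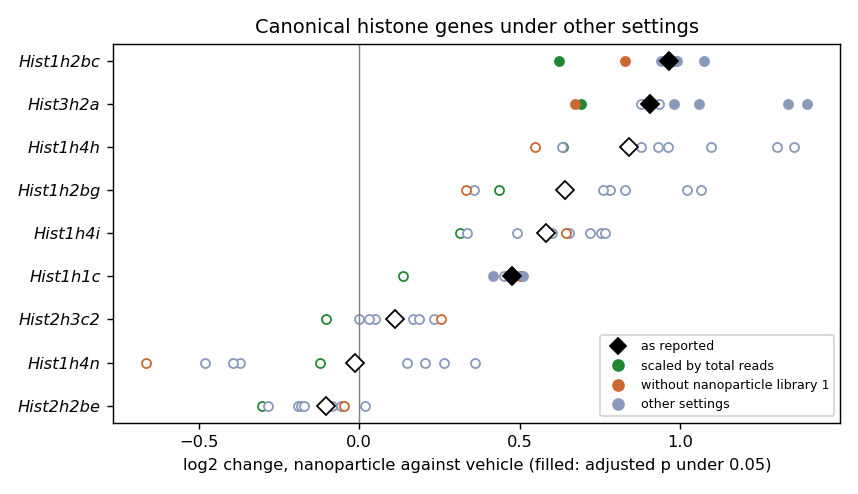
Log2 change, nanoparticle against vehicle, of the 9 canonical histone genes as reported and under each alternative setting, filled where the adjusted p is under 0.05. Hist1h2bc is filled at every setting, from 0.62 to 1.07. Hist1h1c is at 0.13 with scaling by total reads, and Hist1h4n runs from -0.66 to 0.36.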

How the data were processed

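RNA of 3 vehicle and 3 nanoparticle libraries was sequenced. The tools CASAVA, STAR 2.5, HTSeq, edgeR 3.16.5 and DESeq2 2 and the builds hg19 and mm10 are named in the submitters' processing notes, without role or order. The authors deposited 2 tables whose 140388 values are identical. One table is named for read counts, but the values are not whole and their unit is not named. The deposited values were treated as FPKM, because they became whole reads (within 0.01) when multiplied by GENCODE M21 exon length and 1 scale per library, for 98.7% to 98.8% of values and for every value of the 57 members. Those scales are not proportional to total reads, so the deposited values carry a scaling between libraries that was kept. The reads carry no molecular identifiers in the sources used here and may repeat a molecule, so the floor of 3 reads covers counting error only.

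Genes that reached 1 FPKM in 3 or more libraries were tested with limma 3.58.1 in R 4.3.3 (log2(FPKM + 1), lmFit, eBayes with trend, prior degrees of freedom 2.33), with p-values adjusted by Benjamini and Hochberg over 10682 genes and a threshold of 0.05. The log2(FPKM + 1) scale understates changes of low genes. With 3 libraries against 3, no single-value permutation test can give p below 0.1, and none is reported. Named genes were every member above the filter, the most abundant member of a histone type or cluster with none, every variant tested, and up to 5 genes of each other list with the smallest adjusted p. Members and lists were chosen with earlier results of these data known. Alternatives were a pseudocount of 0.1, no filter, scaling by total reads, no trend, voom, a replicate block and each library left out. Python 3.11.15 with pandas 2.3.3, numpy 2.4.6 and matplotlib 3.10.9 was used.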

Additional observations from a re-analysis of the deposited data

How the results depend on the processing

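Hist1h2bc kept its direction and its call in all 12 alternatives. Hist1h1c lost its call in 5 (scaling by total reads, the replicate block at limma adjusted p = 0.0687, and each vehicle library left out) and Hist3h2a in 4 (no filter and each vehicle library left out); the cause was not tested. With each library left out in turn, 1 to 3 canonical histone genes were higher and 0 lower, the median log2 change of those tested was 0.42 to 0.76, and the ratio of summed FPKM was 1.53 to 1.74. Over all genes, 1114 to 3660 were then higher and 1027 to 3263 lower, with the largest counts without nanoparticle library 1 and the smallest without a vehicle library. In the same fits, 1 to 6 variants were higher, 2 to 5 transcription genes lower, 0 to 5 processing genes higher and 0 to 6 lower, 2 to 9 chaperones lower, and 0 to 1 of the RNAs without a tail higher. With no filter, 1 histone gene was lower, the median over all 57 members was 0.037, and 2 transcription genes and 1 processing gene were lower. Scaling by total reads gave 1108 genes higher and 3613 lower, 1 variant higher, 8 processing genes and 9 chaperones lower, and a summed histone ratio of 1.28. The same scaling changed the sign for Hist2h3c2 (-0.10), H2afy (-0.0095), H2afj (-0.25), H1f0 (-0.016) and Rn7sk (-0.023). Leaving out 1 library changed it for Hist2h3c2 (range -0.00051 to 0.26), Hist2h2be (-0.29 to 0.017), Hist1h4n (-0.66 to 0.36), H2afx (-0.51 to 0.055) and H2afj (-0.17 to 0.49). Same-numbered libraries did not deviate together (correlations of 0.065, 0.113 and -0.058 over 10682 genes), so the numbers were not taken to pair them. With the number as a replicate block, 2 histone genes and 1 variant were higher, and 0 processing genes and 2 chaperones lower. Depth limits the 48 members below the filter, whose median was 13.5 reads.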
